A study of Triticum aestivum with 15 samples.

Results

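The 8 probe sets described here are those of the 61290 on the Affymetrix Wheat Genome Array that the study names as DIR1, FMO1, isochorismate synthase or WRKY70. DIR1 is represented by 2 probe sets, FMO1 by 3, isochorismate synthase by 1 and WRKY70 by 2. Leaf RNA of 5 wheat lines was hybridized to 15 arrays, 3 per line, each from plants bulked in a pot. TH237 carries the cytoplasm of Hordeum chilense accession H7 in the nuclear background of T20, and the euplasmic T20 is its control. T183 carries the cytoplasm of Aegilops uniaristata and T195 that of Aegilops tauschii, named Ae. squarrosa in some labels, both in the nuclear background of the cultivar Chris, and the euplasmic Chris is the control of both. All arrays were made from the second fully expanded leaf of seedlings 14 days old, grown in garden soil under the higher of the light intensities that the study used. TH237 was obtained after far fewer backcrosses than T183 and T195. The study explains this by the lack of pairing between Hordeum chilense and wheat chromosomes at meiosis. The cytoplasm of TH237 and any remaining nuclear difference from T20 cannot be told apart in these data. The labels name no pathogen or chemical treatment for any line.

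Salicylic acid is a plant hormone of defence against biotrophic pathogens, and isochorismate synthase makes its precursor isochorismate from chorismate in the chloroplast. In Arabidopsis, DIR1 is a lipid transfer protein of the apoplast needed for the long-distance signal of systemic acquired resistance, and FMO1 is a flavin-dependent monooxygenase that makes N-hydroxypipecolic acid, another signal of the same response. WRKY70 is an Arabidopsis transcription factor that activates genes of the salicylic acid response and represses genes of the jasmonic acid response. These names reached the wheat probe sets through similarity of sequence, and the roles in wheat are not part of these data.

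The deposited values are MAS 5.0 signals on a linear scale. A value of 16 was added before the log2 was taken, and differences are given on that log2 scale with the standard error of 1 limma model of all 15 arrays. Probe sets whose signal exceeded the 55th percentile in 3 or more arrays were tested, which held for 31555 of them and for all 8 members. They were called higher or lower if they changed 2-fold or more with a Benjamini-Hochberg adjusted p not above 0.05. The members had been listed by the study for their change between TH237 and T20 on these same arrays, so that difference is a description here and carries no test, and the same holds for T20 against Chris. The comparisons of T183 and T195 took no part in the choice and were tested. The arrays had median signals of 67.3 to 94.9, with R-squared between replicates between 0.915 and 0.939. The ratio of the 3' to the 5' probe sets of the control gene GAPDH ran from 0.137 to 0.861. That of actin ran from 0.736 to 2.56, the highest being TH237 replicate 1. The probe sets of a gene are told apart below by their brightness, and the titles of the plot of signals give their identifiers. Leaf RNA is a mixture, so fewer cells of a type and less RNA per cell cannot be told apart.

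DIR1, the systemic signal carrier, had at its bright probe set the largest difference between TH237 and T20 among the 8. In TH237 the signal of its bright probe set was 2580, 2954 and 2034, against 144, 128 and 146 in T20. Every TH237 array lay far above every T20 array, and the difference of 4.02 ± 0.26 corresponds to 16.2-fold. In the Chris background the signals were 314, 497 and 342 in T183 and 288, 446 and 543 in T195, against 739.5, 837 and 471 in Chris. The ascending order of the line means was T20, T183, T195, Chris and TH237. T20 below T183 and TH237 above Chris were the steps without overlap, while the arrays of T183, T195 and Chris overlapped in part.

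The dim DIR1 probe set was measured well only in TH237, where its signals were 312, 379 and 252. T20 gave 14.1, 30.8 and 35.9, below the 55th percentile of the array on each array. T183 (21.6 to 27.6), T195 (26.1 to 76.1) and Chris (37.1 to 49.5) were below it on each array too, so the order of those lines has no meaning. With the dim T20 arrays raised to that percentile, TH237 was at least 2.92-fold higher than T20. The fitted difference, without that step, was 2.96 ± 0.28 on the log2 scale, or 7.80-fold. The size of this difference depended on the value added, with 3.58 when 1 and 2.05 when 64 was added before the log2. A pair of further probe sets that share the identifier stem, but are not named by the study, were too dim to be tested.

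All 3 FMO1 probe sets were highest in TH237. The brightest had signals of 3148, 3421 and 3237 in TH237, against 738, 1176 and 1440 in T20, a difference of 1.59 ± 0.27 or 3.00-fold. TH237 varied little between arrays while the T20 arrays spread 1.95-fold, and the lines did not overlap. T183 gave 227, 403 and 408 and T195 gave 292, 302 and 292, against 382, 658 and 538 in Chris. The T195 arrays agreed within 1.04-fold and all lay below the lowest Chris array, whereas the upper T183 arrays overlapped with Chris. From the lowest mean the order was T195, T183, Chris, T20 and TH237, and Chris and T20 did not overlap either.

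For the intermediate FMO1 probe set the signals were 983, 1510 and 1418 in TH237, against 130, 372 and 375 in T20, a difference of 2.21 ± 0.41. T20 replicate 1 was well below the other T20 arrays at all 3 FMO1 probe sets, and without it the difference at the intermediate one was 1.74. The arrays of T183 (103 to 270), T195 (80.4 to 166) and Chris (126 to 218) overlapped. The dimmest FMO1 probe set had signals of 328, 225 and 218 in TH237, against 53.5, 122 and 141 in T20, a difference of 1.23 ± 0.28. T183 (57.9 to 61.2), T195 (47.4 to 82.5) and Chris (66.2 to 97.9) lay below the 55th percentile of the array on each array. Across the 15 arrays the log2 signals of the brightest and the intermediate FMO1 probe sets, which share an identifier stem, correlated with r 0.941, and with 0.864 after the mean of each line was removed. These points share the array and its scaling, and the correlations are descriptions.

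Isochorismate synthase, the enzyme of the salicylic acid precursor, was measured by a single probe set. Its signals were 704, 454 and 452 in TH237, against 158, 134 and 320.5 in T20. The lowest TH237 array lay above the highest T20 array, with a difference of 1.39 ± 0.33 or 2.62-fold. T183 gave 199, 442 and 337 and T195 gave 353, 219 and 271, against 420, 364 and 506 in Chris. The means ascended in the order T20, T195, T183, Chris and TH237, with overlap at every step, so that TH237 and Chris were not separated.

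WRKY70, the transcription factor, was the gene with lower signal in TH237. The brighter probe set had signals of 1430, 1441 and 1644 in TH237, against 4279, 4278 and 3513 in T20, a difference of -1.41 ± 0.45. The dimmer one, whose ending x_at marks probes that may also match related transcripts, had 461, 576 and 480 in TH237, against 1756, 1407 and 1342 in T20, a difference of -1.54 ± 0.41. At both probe sets all TH237 arrays lay below all T20 arrays. In T183 the brighter one gave 1704, 6014 and 2862 and in T195 4371, 5601 and 1496, against 6310, 5540 and 4528 in Chris. The dimmer one gave 566, 1612 and 499 in T183 and 1157, 909.9 and 404 in T195, against 964, 1405 and 1103 in Chris. T183 and T195 each therefore held an array as high as Chris and an array close to TH237.

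**Figure D1:**
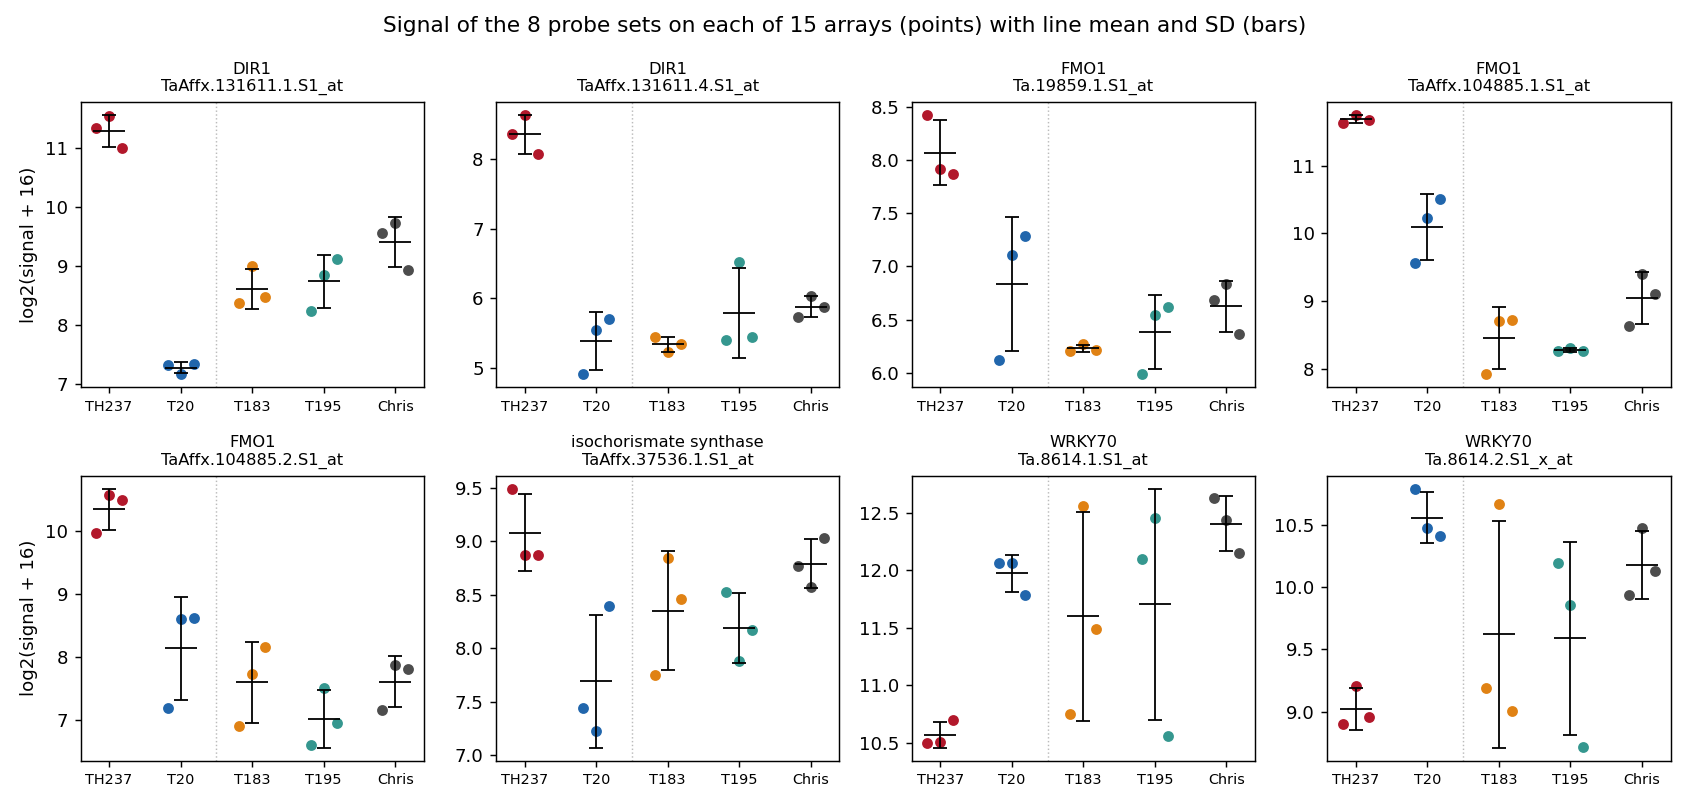
Each panel plots log2(signal + 16) of 1 probe set on the 15 arrays (points, 3 per line in the order of the replicate numbers), with the mean of the line and its SD as bars; the dotted line divides the T20 from the Chris background. At both DIR1 and all 3 FMO1 probe sets the TH237 arrays lie above every other array, whereas at WRKY70 the T183 and T195 arrays spread from the level of Chris towards that of TH237.

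Between TH237 and T20, 6 of the 8 members passed as higher in the model of 15 arrays, beside 1.35% of all probe sets tested. None passed as lower, beside 0.925%. These counts follow from how the members were chosen and nothing is read from them. No TH237 array overlapped with a T20 array at any of the 8, 6 higher and 2 lower, beside 12.4% of all probe sets in each direction. This too follows from the choice, and nothing is read from it. The WRKY70 probe sets did not pass here but both passed in a model of TH237 and T20 alone, in which 5 of 8 passed. Without the filter on dim signals 4 of 8 passed. With quantile normalization, median centring or a block for replicate number 7 of 8 passed, 1 WRKY70 probe set among them. With 64 added before the log2, 6 of 8 passed, again with 1 WRKY70 probe set. The spread of WRKY70 in T183 and T195 enters the standard error of the larger model. The member with the smallest difference was the dimmest FMO1 probe set at 1.23. Among the probe sets outside the choice that share a stem, the largest difference of those tested was -0.35, at a probe set ending in S1_x_at with the WRKY70 stem, followed by 0.16 at its S1_at counterpart. A set of 12 antenna and other photosynthesis probe sets, most of them listed by the study as higher in TH237, was also summed. Left out were other photosynthesis probe sets of that list, some higher and some lower in TH237, psbE and psbM among the lower. The summed signal of the 12 ran from 148445 to 171543 in TH237 and from 38127 to 58405 in T20. Of these 12, 5 lay above the 55th percentile on all arrays, and the part of this shift in the members' differences was not tested.

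Values of T20 and Chris are given side by side as a description, since the T20 arrays took part in choosing the members and also enter TH237 minus T20. T20 was lower than Chris at the bright DIR1 probe set by a difference of -2.13 ± 0.26 and at isochorismate synthase by -1.10 ± 0.33. It was higher than Chris at the brightest FMO1 probe set by 1.05 ± 0.27. These 3 members were past the thresholds of the model, 1 higher and 2 lower, beside 3.14% and 4.19% of all probe sets, and nothing is read from these counts. Without T20 replicate 2 or without Chris replicate 1 the number was 1 of 8. The other FMO1 probe sets differed between T20 and Chris by 0.53 ± 0.41 and 0.21 ± 0.28. WRKY70 differed by -0.43 ± 0.45 at the brighter and by 0.38 ± 0.41 at the dimmer probe set, on opposite sides of 0. T20 and Chris arrays did not overlap at 1 member with T20 higher and 3 with T20 lower, beside 16.1% and 17.3% of all probe sets and apart from the dim DIR1 probe set, where both lines lay below the 55th percentile. In a model of T20 and Chris alone 1 of 8 passed.

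**Figure D2:**
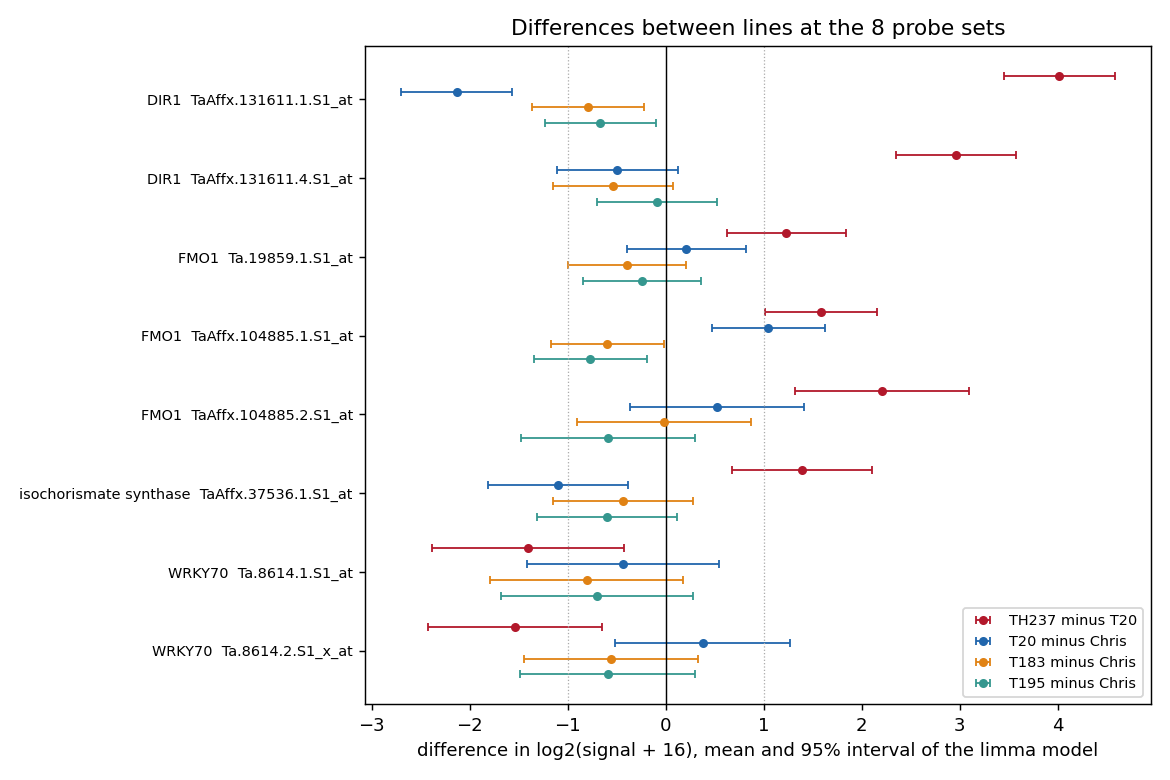
The horizontal axis gives the difference in log2(signal + 16) of each probe set in 4 comparisons, as the model's estimate with its 95% interval, and the dotted lines mark a 2-fold change. TH237 minus T20 reaches 4.02 at DIR1, while T183 minus Chris and T195 minus Chris lie between -0.81 and -0.01, with the dim DIR1 and the dimmest FMO1 probe set below the 55th percentile on all arrays of those lines.

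In the Aegilops cytoplasm lines no member passed the thresholds. For T183 against Chris 0 of 8 were called by limma, beside 0.124% of all probe sets, and for T195 against Chris 0 of 8, beside 0.254%. At an unadjusted p under 0.05 there were 2 members in each comparison, the bright DIR1 and the brightest FMO1 probe set in both, beside 6.89% of all probe sets for T183 and 11.2% for T195. At the dim DIR1 and the dimmest FMO1 probe set every T183, T195 and Chris array lay below the 55th percentile, so their differences are not interpreted. These probe sets passed the filter only through their 3 TH237 arrays and, at FMO1, 2 T20 arrays as well. The counts of 0 of 8 include them, though they could hardly give a call here. The estimates of the other 6 were all below 0 in T183 (5 of 6 after quantile normalization), with a median of -0.58 beside -0.0087 over all probe sets, of which 51.5% were below 0. All 6 were below 0 in T195 too, with a median of -0.63 beside -0.0082 and 51.3%. Both comparisons use the same Chris arrays, so an error in those arrays moves both together, and probe sets of 1 gene are not independent. The summed signal of the photosynthesis probe sets named above ran from 10822 to 16912 in T183 and from 12757 to 21740 in T195, against 17999 to 26388 in Chris, and its part in these estimates was not tested.

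For DIR1, the bright probe set differed by -0.79 ± 0.26 in T183 (limma adjusted p 0.480) and by -0.67 ± 0.26 in T195 (adjusted p 0.361). The intervals of these differences were -1.36 to -0.22 and -1.23 to -0.10. At the brightest FMO1 probe set the differences were -0.59 ± 0.27 in T183 (adjusted p 0.705) and -0.77 ± 0.27 in T195 (adjusted p 0.293), the smallest adjusted p of any member. The intermediate FMO1 probe set stood at -0.01 ± 0.41 in T183 (limma adjusted p 0.9996) and -0.59 ± 0.41 in T195 (adjusted p 0.660). The T183 value at this probe set changed sign when single arrays were left out, with 0.34 without T183 replicate 1, 0.12 without Chris replicate 2 and 0.08 without Chris replicate 3.

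Isochorismate synthase differed by -0.44 ± 0.33 in T183 (interval -1.15 to 0.28, limma adjusted p 0.879) and by -0.60 ± 0.33 in T195 (interval -1.31 to 0.12, adjusted p 0.547). All T195 arrays lay below all Chris arrays here and at the brightest FMO1 probe set, 2 of the 6, beside 8.98% of all probe sets tested. For T183 this held at 0 of the 6, beside 6.24%. WRKY70 differed by -0.81 ± 0.45 in T183 (adjusted p 0.804) and -0.70 ± 0.45 in T195 (adjusted p 0.632) at the brighter probe set. At the dimmer one the values were -0.56 ± 0.41 (adjusted p 0.872) and -0.59 ± 0.41 (adjusted p 0.662). The model's shared spread understates that of T183 and T195 at WRKY70. Their SDs at the brighter probe set were 0.91 and 1.01, against 0.24 in Chris. Single arrays set the WRKY70 estimates. With single arrays left out, the brighter probe set ran from -1.29 (without T183 replicate 2) to -0.38 (without T183 replicate 1) in T183 and from -1.07 (without T195 replicate 2) to -0.13 (without T195 replicate 3) in T195. The dimmer one ran from -1.08 (without T183 replicate 2) to -0.25 (without T183 replicate 3) in T183 and from -0.90 (without T195 replicate 1) to -0.15 (without T195 replicate 3) in T195.

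Set directly against each other, no member was called between T183 and T195 by limma, 0 of 8 beside 0.0729% of all probe sets, 0 at an unadjusted p under 0.05 and a smallest adjusted p of 0.804. Estimates of T183 minus T195 at the 6 members that were not dim in both lines ran from -0.12 ± 0.26 at the bright DIR1 probe set to 0.58 ± 0.41 at the intermediate FMO1 probe set. For the bright DIR1 probe set the interval was -0.69 to 0.44, and for the brighter WRKY70 probe set it was -1.09 to 0.87. That WRKY70 interval uses a spread shared by all lines, while the SD was 0.91 in T183 and 1.01 in T195. It is therefore too narrow for these lines, and the arrays leave room for a WRKY70 difference of 2-fold or more.

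WRKY70 varied between the arrays of T183 and of T195. The highest array exceeded the lowest at the brighter probe set by 3.53-fold in T183 and 3.74-fold in T195, against 1.15-fold in TH237, 1.22-fold in T20 and 1.39-fold in Chris. The SD within lines was 0.62 at the brighter and 0.56 at the dimmer probe set on the log2 scale, beside 0.56 at the intermediate FMO1 probe set, 0.34 to 0.44 at the other members and a median of 0.29 over all probe sets tested. The low arrays were T183 replicate 1 and T195 replicate 3 at both probe sets, with T183 replicate 3 also low at the dimmer one. Deviations from the line mean correlated between the 2 probe sets with r 0.824 over the 15 arrays. T183 replicate 1 and T195 replicate 3 also had the lowest median signals of all arrays, 70.1 and 67.3. Mean WRKY70 deviation correlated with the log2 median signal of the array, also taken as deviation from its line mean, with r 0.518. With the log2 GAPDH ratio, taken the same way, r was 0.194. With the first component of all within-line deviations r was 0.466 in size, as the sign of that component is arbitrary. The part of these in the spread was not tested.

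WRKY45, a transcription factor of the salicylic acid response in rice, followed the same arrays. The study had listed it among the probe sets changed on these arrays, so its differences and p-values are descriptions. Its probe set had signals of 2859, 6549 and 4266 in T183 and 5019, 7322 and 2747 in T195, against 7860, 7775 and 5823 in Chris. Its deviations from the line mean correlated with those of the brighter WRKY70 probe set with r 0.963 and with those of the dimmer one with r 0.759. Whether these probe sets also read each other's transcripts was not tested. In the T20 background its signals were 613, 596 and 538 in TH237, against 1503, 1495 and 1232 in T20. WRKY45 was thus lower in TH237 by a difference of -1.25 ± 0.33, and lower in T20 than in Chris by -2.32 ± 0.33, a step that neither WRKY70 probe set showed at that size. Against Chris it stood at -0.72 ± 0.33 in T183 (limma adjusted p 0.716) and -0.60 ± 0.33 in T195 (adjusted p 0.536).

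**Figure D3:**
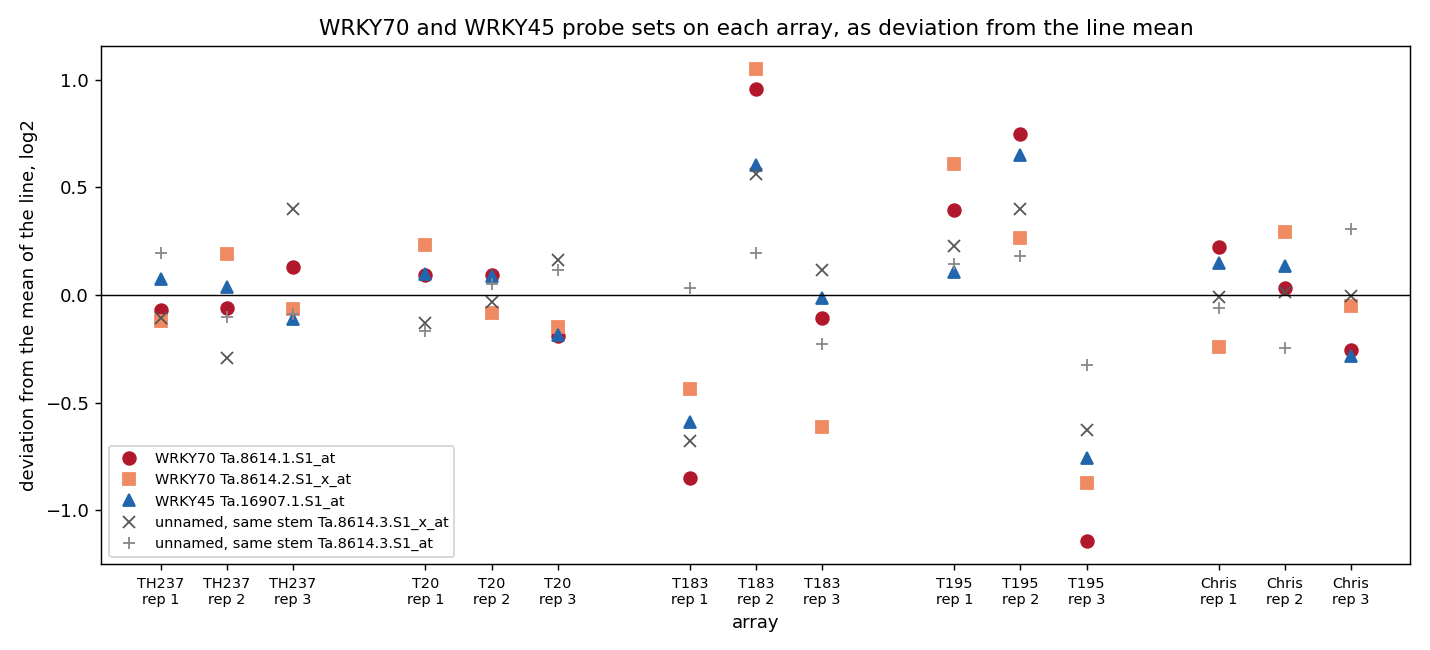
For each of the 15 arrays the vertical axis gives the deviation of log2(signal + 16) from the mean of its line, for the 2 WRKY70 probe sets, WRKY45 and 2 unnamed probe sets with the WRKY70 identifier stem. In T183 replicate 1 and T195 replicate 3 WRKY70 and WRKY45 are low together and in T183 replicate 2 and T195 replicate 2 high together, while their points in TH237, T20 and Chris lie closer to 0.

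A pair of probe sets shared the WRKY70 identifier stem without a name from the study. The unnamed probe set ending in S1_at had 1202, 974 and 984 in TH237, against 834, 972 and 1017 in T20, so that the lines overlapped. Its counterpart ending in S1_x_at differed by -0.35 ± 0.31 between TH237 and T20, with overlapping arrays. In the deviations from the line mean, the S1_x_at probe set correlated with the brighter WRKY70 probe set with r 0.873 and the S1_at probe set with r 0.425.

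Of the related genes set beside the members, wir1, a defence-induced gene of wheat, was on the opposite side of 0 in the Aegilops lines. Whether it belongs to the same response as the members was not tested. It was taken from the study's list of probe sets changed on these arrays, so its differences, shares and p-values are descriptions. Its probe set had signals of 10768, 5428 and 5703 in T183 and 9591, 8516 and 8434 in T195, against 3620, 3683 and 4341 in Chris. All T183 and T195 arrays lay above all Chris arrays, beside 5.37% of all probe sets for T183 and 7.05% for T195, but the differences of 0.84 ± 0.27 in T183 (limma adjusted p 0.465) and 1.19 ± 0.27 in T195 (adjusted p 0.101) did not pass. In TH237 wir1 stood at -0.84 ± 0.27 relative to T20. T183 replicate 1 had the highest wir1 signal of all arrays and a low WRKY70 signal. A putative salicylic acid-binding protein differed by -0.79 ± 0.31 in TH237, by -0.06 ± 0.31 in T183 (adjusted p 0.989) and by 0.60 ± 0.31 in T195 (adjusted p 0.510).

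The other 18 probe sets of the study's list for biotic stress hold lipoxygenases of jasmonic acid synthesis, resistance gene homologues and pathogenesis-related proteins. This list too was chosen on TH237. Between TH237 and T20, 5 were called higher and 3 lower, beside 1.35% and 0.925% of all probe sets, led by a powdery mildew resistance protein at 2.15 ± 0.38. Between T20 and Chris, 7 were called higher and 1 lower, beside 3.14% and 4.19% and again with T20 arrays that took part in the choice, the lower one being that same powdery mildew probe set at -3.33 ± 0.38, while a lipoxygenase similar to LOX3 was higher by 3.63 ± 0.67. For T183 against Chris none of the 18 was called by limma, 1 had an unadjusted p under 0.05 and the smallest adjusted p was 0.504. For T195 against Chris 5 of 18 had an unadjusted p under 0.05, and 1 was called lower, a Vrga1 resistance gene homologue (limma adjusted p 0.0327). Its signals were 34.7, 22.8 and 12.9 in T195, all below the 55th percentile, against 130, 66.0 and 141 in Chris. The Chris array at 66.0 was below that percentile too. With the T195 arrays raised to it and Chris left as measured, Chris was at least 1.11-fold higher. Another Vrga1 probe set, below that percentile on every array of both lines, was not called (adjusted p 0.181). Over all probe sets 6.89% had an unadjusted p under 0.05 for T183 and 11.2% for T195.

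For each member the 3 probe sets whose log2 signals followed it most closely over the 15 arrays were found by Pearson's r among those tested, as a description in which the arrays of a line share its mean. The bright DIR1 probe set was followed most closely by an unannotated probe set with r 0.929, and 0.455 once line means were removed, and next by an aminotransferase of class I and II with r 0.923 and 0.251. The dim DIR1 probe set was followed by the plastid ATP synthase CF0 probe set with r 0.950 and 0.268 within lines. Next came the alpha subunit of the plastid RNA polymerase with r 0.948 and 0.535 within lines. Both were higher in TH237 than in T20, by 5.36 and 4.20. Outside TH237 the signals of this DIR1 probe set were dim on every array. Its r over all arrays therefore cannot be told apart from the shared step to TH237. Its r within lines rests mostly on dim signals, and nothing is read from either. Names were taken only from the study's list of probe sets changed on these same arrays. An unannotated probe set here is one without a name in that list. For the remaining members the closest of the 3 with such a name is given, where there was one. For the brightest FMO1 probe set it was a beta-fructofuranosidase, an enzyme that splits sucrose, with r 0.985 and 0.733 within lines. The dimmest FMO1 probe set was followed by ARR3, a response regulator of cytokinin signalling in Arabidopsis, with r 0.944 and 0.663 within lines. Its signals were dim on every T183, T195 and Chris array, which limits these values too. The intermediate FMO1 probe set was followed, at rank 3, by a LIM transcription factor with r 0.946 and 0.645 within lines. Isochorismate synthase was followed most closely by an unannotated probe set, with r 0.907 and 0.859 within lines. The brighter WRKY70 probe set was followed by a transferase family protein with r 0.870 and 0.853 within lines, and the dimmer one by a GDSL-motif lipase with r 0.879 and 0.722 within lines.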

How the data were processed

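Total RNA of leaves was labelled with biotin and hybridized to the Affymetrix Wheat Genome Array, and the labels gave each sample's line and replicate number. The authors deposited 1 intensity per probe set and array, a linear MAS 5.0 signal, scaled so that the 2% trimmed mean of each array lay between 500.256 and 500.285. The version of MAS 5.0 is not given in the sources used here, and the RMA values of the study's own comparisons were not used, nor were its fold changes. From the intensities log2(signal + 16) was taken with R 4.3.3, and 1 model of 5 lines (10 residual degrees of freedom) was fitted with limma 3.58.1. After removal of 111 control probe sets, 31555 of 61179 were kept. The p-values measure the spread between these pots of plants only, and the number of arrays limits the precision.

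Members are all probe sets that the study names as DIR1, FMO1, isochorismate synthase or WRKY70. Also named were probe sets with a member's identifier stem, the largest changes among the other biotic stress probe sets, WRKY45, wir1, a salicylic acid-binding protein and the closest probe sets by correlation. Members and lists were chosen with earlier results of these data known. Planned lists of defence, leaf and pollen genes by symbol matched 0 of 1273 annotated symbols and gave no value. No sequences are shown because none were in the files used here. For the bound of a dim probe set, the dim signals of the lower line were raised to the 55th percentile of their array, and the other line was left as measured. Replicate numbers were checked for pairing: over 30 same-numbered pairs the deviations correlated between -0.196 and 0.219, with a mean of -0.0046, so no block was fitted. Alternatives covered the methods' t-test, the lines in the model, the filter, the scaling, the value added, the fold limit, the block and each replicate left out. The code was tested on simulated data.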

Additional observations from a re-analysis of the deposited data

Results flagged for a closer look

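At 4 probe sets the TH237 arrays all lay above the T20 arrays while all arrays of an Aegilops cytoplasm line lay below the Chris arrays. Over all probe sets tested, TH237 lay wholly above T20 at 12.4%. T183 lay wholly below Chris at 6.24% and T195 at 8.98%. The share with both was not counted, and nothing is read from the count of 4. The dim DIR1 probe set stood at 2.96 in TH237 relative to T20 and at -0.538 in T183 relative to Chris, but its signal in T183 and Chris lay below the 55th percentile of every array. The dimmest FMO1 probe set stood at 1.23 in TH237 and -0.394 in T183, with the same limit. At the brightest FMO1 probe set the values were 1.59 in TH237 and -0.767 in T195, and at isochorismate synthase they were 1.39 in TH237 and -0.599 in T195. These differences between cytoplasms were not tested, because the TH237 contrast had chosen the members and the nuclear backgrounds differ. None of the T183 or T195 values passed the limma test on its own. With 3 arrays per line, single outlying arrays were not tested for.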

How the results depend on the processing

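No member changed its call in the comparisons of T183 and T195 with Chris or with each other under any alternative run. Over all probe sets the main model called 719 in TH237 against T20, 39 in T183 and 80 in T195 against Chris, 23 between T183 and T195 and 2311 between T20 and Chris. The methods' t-test, run here on the log2 MAS 5.0 signals in place of RMA values and adjusted over all probe sets kept, called 1, 1, 0, 0 and 306, too few for its calls of members to be informative. A model of only the lines compared called 26 in T195 against Chris and 11 between T183 and T195, and without the filter these were 43 and 13. With 64 added before the log2, 35 were called between T183 and T195. Without the fold limit, 1353 were called in TH237 and 4445 between T20 and Chris. Median centring of each array changed the split in TH237 to 316 higher and 370 lower, against 427 and 292 in the main model, and that between T20 and Chris to 878 and 1522, against 990 and 1321. With the replicate block the counts were 673, 40, 79, 26 and 2291, and 7 of 8 members passed in TH237 against T20. The block changed no call of a member in T183 or T195, and only 3 of 15 arrays correlated best with their own number.

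With single arrays left out, TH237 against T20 had 437 to 609 calls, T183 had 28 to 75, T195 had 33 to 108, T183 against T195 had 12 to 26 and T20 against Chris had 1927 to 2467. The arrays that moved a count by over 1.5 times were T20 replicate 1 (437) and TH237 replicate 2 (477) for TH237, Chris replicate 1 (75) for T183, and Chris replicate 2 (51), Chris replicate 3 (33) and T195 replicate 3 (42) for T195. Between T183 and T195 they were T183 replicate 3 (12) and T195 replicate 3 (15). Some small estimates changed sign, none of them called. For T183 minus Chris, the intermediate FMO1 probe set ran from -0.297 to 0.337 as arrays were left out and was 0.0392 after quantile normalization. For T195 minus Chris, the dim DIR1 probe set, below the 55th percentile in both lines, ran from -0.46 to 0.105. For T183 minus T195 the ranges were -0.372 to 0.0675 at the bright DIR1 probe set, -0.678 to 0.319 at the brighter WRKY70 probe set, -0.0837 to 0.462 at isochorismate synthase and -0.492 to 0.339 at the dimmer WRKY70 probe set, where median centring gave -0.0433. The cause was not tested. Signals below the 55th percentile of an array, at the dim DIR1 and, on most arrays, the dimmest FMO1 probe set outside TH237, limit what those probe sets can show.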
